A study of Homo sapiens with 8 samples.

Results

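The genes of cholesterol and fatty acid synthesis were followed through 8 RNA-seq libraries of A549 cells, an established line from a human lung adenocarcinoma. They are a list of 31 gene symbols for sterol synthesis, its control by SREBP factors, sterol transport and lipogenesis, matched by symbol to the deposited table. All 31 were among the 17056 genes of that table, and all 31 passed the filter of a mean of at least 1 FPKM over the 8 libraries, which 10648 genes passed. FPKM is a fragment count scaled by transcript length and library size. The labels give 4 groups of 2 libraries, all in A549 cells. The vector control libraries are titled vector. The overexpression libraries, titled OE, come from cells in which the long non-coding RNA AFAP1-AS1 was overexpressed. The knockdown libraries, titled ASO, come from cells in which AFAP1-AS1 was knocked down, and the knockdown control libraries, titled ASONC, are their negative control. ASO is the usual short form of antisense oligonucleotide. If it means that here, the negative control cells also received an oligonucleotide. The vector, the agents' sequences and doses, and the times were not given in the sources used here. Because each arm, a manipulation and its control, has a control of its own, a difference between the knockdown control and the vector control holds the agent, its delivery and any difference in handling together, and these cannot be told apart.

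Cholesterol is built from acetyl-CoA through the mevalonate pathway, whose early enzymes make isoprenoid units and farnesyl diphosphate. Squalene is then formed, closed into the sterol ring and trimmed and reduced to cholesterol. Fatty acid synthesis starts from the same acetyl-CoA, with ACLY, ACACA and FASN making palmitate and ELOVL6 and SCD lengthening and desaturating the products, while FADS1 and FADS2 desaturate polyunsaturated fatty acids. Both branches are transcriptional targets of SREBP factors, membrane-bound precursors that SCAP escorts from the endoplasmic reticulum to the Golgi for cleavage when sterols are low. INSIG1 and INSIG2 hold SCAP back when sterols are high. SREBF2 is best known for driving the sterol genes and SREBF1 for driving the fatty acid genes, and INSIG1 is itself a target.

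The libraries had between 33662221 and 37508996 recovered reads, and the members had between 183 and 88224 reads in a library. The knockdown control libraries stood apart in genes listed at 0, with 1435 and 1341 of 17056 against 2205 to 2327 in the other 6. The keratins KRT7, KRT8 and KRT18 ran from 956 to 1339 FPKM in every library. The epithelial markers EPCAM, CDH1 and KRT19 were low, between 0.386 and 4.92 FPKM. PTPRC, the pan-leukocyte marker, was listed at 0 in 7 libraries, and DCN, a fibroblast marker, in 5. Other markers of those lists were above 0 in every library, CD14 with 1.57 to 2.70 FPKM and COL1A1 with 0.463 to 2.50 FPKM. AFAP1-AS1 itself was not analysed here, so its level does not check the labels. The labels do not say whether replicates were separate cultures, and the p-values therefore reflect only the spread of these libraries, possibly a technical one. An exact permutation test of 2 libraries against 2 cannot go below p = 0.333, and the tests below are from limma over all genes.

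In the vector control, the 4 most abundant members per length were fatty acid genes. The other fatty acid genes, FASN, ACACA and ELOVL6, ranked 7, 18 and 24 of the 31 members. SCD, the desaturase that makes oleate, led with 263 ± 6.17 FPKM (SD, n = 2), ahead of ACLY, the cytosolic source of acetyl-CoA, with 225 ± 14.1 FPKM. FADS2 and FADS1, the desaturases of polyunsaturated fatty acids, followed with 135 ± 1.73 and 117 ± 2.12 FPKM. The most abundant sterol gene was FDPS, which makes farnesyl diphosphate, with 82.4 ± 2.28 FPKM. HMGCS1, FDFT1 and CYP51A1 lay at 37.2 ± 0.897, 36.3 ± 0.202 and 35.9 ± 0.243 FPKM, and HMGCS1 and FDFT1 differed by less than the spread of HMGCS1. The lowest members were INSIG2 with 3.81 ± 0.175 FPKM and STARD4, a sterol carrier, with 1.87 ± 0.169 FPKM.

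The knockdown control was set against the vector control to see how the members' levels differ between the study's controls. Of the 31 members, 24 were higher in the knockdown control, 2 were lower and 5 did not pass (limma adjusted p below 0.05). The background was large, since 68.6% of all genes tested passed in that comparison, 36.8% of all genes as higher and 31.8% as lower. The members' median log2 fold change was 0.62, and that of all genes tested was 0.037. All 18 genes of the sterol branch were higher, with a median of 0.996 on the log2 scale, while the 7 fatty acid genes went in different directions around a median of 0.084, which was -0.13 under TPM scaling. As these are bulk samples, more cells of a kind and more RNA per cell cannot be told apart.

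**Figure D1:**
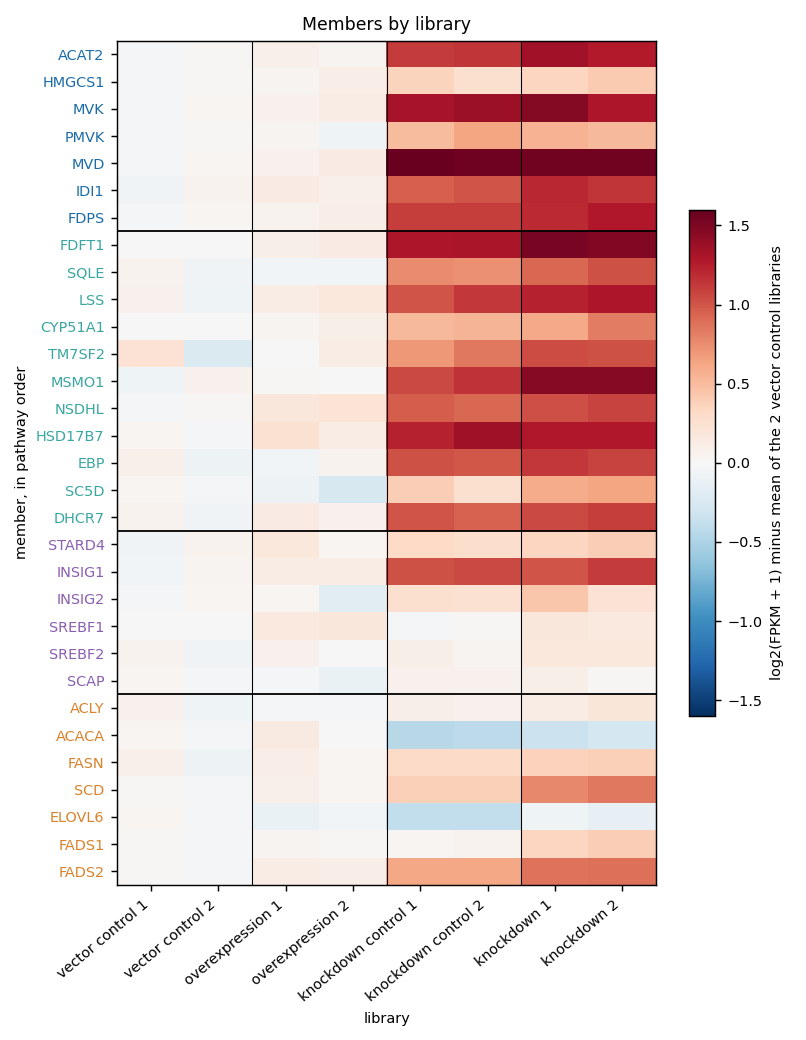
Level of each member (rows, in pathway order, grouped by role with black lines) in each of the 8 libraries (columns), as log2(FPKM + 1) minus the mean of the 2 vector control libraries. Sterol genes and INSIG1 are red in all 4 libraries of the knockdown arm, ACACA is blue there, and the overexpression libraries are pale throughout.

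Among the early mevalonate genes, which turn acetyl-CoA into farnesyl diphosphate, all 7 were higher in the knockdown control than with the vector, with a median of 1.10 on the log2 scale. MVD, which decarboxylates mevalonate diphosphate (chromosome 16, 88651940 to 88663091), had 12.3 and 12.9 FPKM with the vector, 13.3 and 13.8 under overexpression, 39.8 and 39.1 in the knockdown control and 38.7 and 38.7 under knockdown. All 4 libraries of the knockdown arm lay above all 4 of the overexpression arm. MVD was 3.13-fold higher in the knockdown control (log2 fold change 1.57 ± 0.049 SE, adjusted p = 8.32e-10), the highest fold of the members.

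MVK, mevalonate kinase (chromosome 12, 109573272 to 109598125), had 5.33 and 5.58 FPKM with the vector, 5.77 and 6.001 under overexpression, 15.1 and 15.7 in the knockdown control and 16.8 and 14.8 under knockdown. Its arms were also apart, and the knockdown control was 2.82-fold above the vector control (log2 fold change 1.35 ± 0.070, adjusted p = 1.67e-08). ACAT2, the cytosolic thiolase that joins acetyl-CoA units (chromosome 6, 159762045 to 159779112), had 29.8 and 30.9 FPKM with the vector, 32.1 and 31.4 under overexpression, 67.2 and 68.0 in the knockdown control and 78.4 and 74.3 under knockdown. It was 2.23-fold higher in the knockdown control and rose again with knockdown. Of its exonic bases, 52.3% also lie in exons of SOD2, SOD2-OT1 or TCP1 on the opposite strand, and strand use in the counting was not given in the sources used here. IDI1, the isopentenyl diphosphate isomerase (chromosome 10, 1039152 to 1056704), had 11.04 and 12.1 FPKM with the vector, 12.7 and 12.3 under overexpression, 23.4 and 24.1 in the knockdown control and 27.9 and 26.6 under knockdown. It was 2.06-fold higher in the knockdown control (log2 fold change 0.98 ± 0.057), and the knockdown libraries lay above those of the control. FDPS was 2.16-fold higher, and has 8 named pseudogenes that could share its reads. Exons of other genes on the opposite strand hold 18.6% of the exonic bases of FDPS, 15.0% of HMGCS1 and 14.8% of IDI1. PMVK, phosphomevalonate kinase, was 1.503-fold higher. The smallest rise of the 7 as deposited belonged to HMGCS1, the synthase at the pathway's entry, which was 1.24-fold higher (log2 fold change 0.31 ± 0.049, adjusted p = 0.000158). After the length and GC correction below, PMVK had the smallest rise, of 0.054 on the log2 scale.

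The 11 sterol ring genes, from squalene formation to the last reductions, were also all higher in the knockdown control, by between 1.30-fold and 2.68-fold. HSD17B7, a ketoreductase of the demethylation steps (chromosome 1, 162790702 to 162812823), had 6.79 and 6.51 FPKM with the vector, 8.05 and 7.34 under overexpression, 17.0 and 18.7 in the knockdown control and 17.7 and 17.6 under knockdown. The 4 libraries of the knockdown arm overlapped each other and lay above the rest, and the knockdown control differed from the vector control by 1.30 ± 0.066 on the log2 scale (adjusted p = 1.53e-08). The gene has 2 named pseudogenes. FDFT1, squalene synthase on chromosome 8, had 36.2 and 36.4 FPKM with the vector, 38.7 and 39.8 under overexpression, 90.1 and 91.0 in the knockdown control and 106 and 103 under knockdown. Here the knockdown libraries stood above the knockdown control, which was 2.49-fold above the vector control (log2 fold change 1.30 ± 0.039, adjusted p = 6.86e-10).

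MSMO1, which removes methyl groups from the ring (chromosome 4, 165327669 to 165343164), had 22.3 and 24.5 FPKM with the vector, 23.8 and 23.2 under overexpression, 49.7 and 53.1 in the knockdown control and 66.0 and 66.1 under knockdown. It made an ordered series, with the vector and overexpression libraries lowest, the knockdown control higher and knockdown highest. NSDHL, a dehydrogenase acting in the same steps (chromosome X, 152831063 to 152869729), had 26.5 and 27.2 FPKM with the vector, 30.6 and 31.4 under overexpression, 53.5 and 51.7 in the knockdown control and 56.1 and 58.1 under knockdown. The overexpression libraries lay above the vector control in this gene, and the knockdown arm far above both. SC5D, a late sterol desaturase (chromosome 11, 121292771 to 121313410), had 5.58 and 5.28 FPKM with the vector, 5.05 and 4.36 under overexpression, 7.42 and 6.65 in the knockdown control and 8.69 and 8.94 under knockdown. Its rise in the knockdown control was the smallest of the ring genes as deposited (0.32 ± 0.080, adjusted p = 0.00350), and it was lowest with overexpression. Over the alternative settings below, the rise of SC5D ran from 0.13 to 0.46 and that of TM7SF2 from 0.34 to 1.01, so these ranges overlap.

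The other ring genes filled the range between these. LSS, which closes the ring, was 2.24-fold higher in the knockdown control. EBP and DHCR7, which act late in the pathway, were 2.03-fold and 1.99-fold higher. SQLE, squalene epoxidase, was 1.69-fold higher, TM7SF2, a sterol reductase, 1.87-fold and CYP51A1, the lanosterol demethylase, 1.46-fold. For CYP51A1, 83.2% of exonic bases are shared with other annotated genes, so its value depends on how those reads were assigned. CYP51A1 also has 3 named pseudogenes. The median fold of the mean FPKM in the knockdown control was 2.04 for the 18 sterol genes and 1.06 for the 7 fatty acid genes. Under TPM scaling their median log2 fold changes were 0.78 and -0.13, where that of all genes tested was -0.15.

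Among the genes that control SREBP, INSIG1 stood out from the rest. INSIG1 (chromosome 7, 155297878 to 155310235) had 20.6 and 21.9 FPKM with the vector, 23.2 and 23.2 under overexpression, 43.9 and 45.1 in the knockdown control and 43.7 and 47.2 under knockdown. The arms were apart, and within each arm the libraries were close. INSIG1 was 2.10-fold higher in the knockdown control than with the vector (log2 fold change 1.03 ± 0.052, adjusted p = 1.38e-08). Its paralog INSIG2 (chromosome 2, 118088471 to 118110997) had 3.69 and 3.93 FPKM with the vector, 3.91 and 3.24 under overexpression, 4.75 and 4.70 in the knockdown control and 5.52 and 4.64 under knockdown. The rise of INSIG2 in the knockdown control was smaller and less certain (0.25 ± 0.094, adjusted p = 0.0317). It did not pass when any of the 4 libraries compared was left out, with adjusted p-values between 0.0534 and 0.138. STARD4 was 1.36-fold higher (adjusted p = 0.00900), which did not pass without vector control replicate 1 (adjusted p = 0.0685).

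The SREBP genes themselves differed little between the controls. SREBF2 (chromosome 22, 41833105 to 41907305) had 15.8 and 14.7 FPKM with the vector, 16.1 and 15.2 under overexpression, 16.4 and 15.7 in the knockdown control and 17.3 and 17.3 under knockdown. The vector control and knockdown control libraries overlapped, with a log2 difference of 0.069 (below 0 under TPM scaling) and a 95% interval of -0.057 to 0.19. SREBF1 (chromosome 17, 17811334 to 17836986) had 18.6 and 18.5 FPKM with the vector, 20.8 and 21.2 under overexpression, 18.1 and 18.8 in the knockdown control and 21.2 and 20.7 under knockdown. Its control libraries also overlapped, with an interval of -0.11 to 0.10. The overexpression and the knockdown libraries of SREBF1 both lay above their own controls. SCAP (chromosome 3, 47413681 to 47477127) had 11.1 and 10.7 FPKM with the vector, 10.8 and 10.1 under overexpression, 11.4 and 11.5 in the knockdown control and 11.7 and 11.1 under knockdown. Its levels lay between 10.1 and 11.7 FPKM in all 8 libraries, and the interval of the difference between the controls was -0.063 to 0.20. These are transcript levels, and cleavage of the SREBP proteins was not measured.

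**Figure D2:**
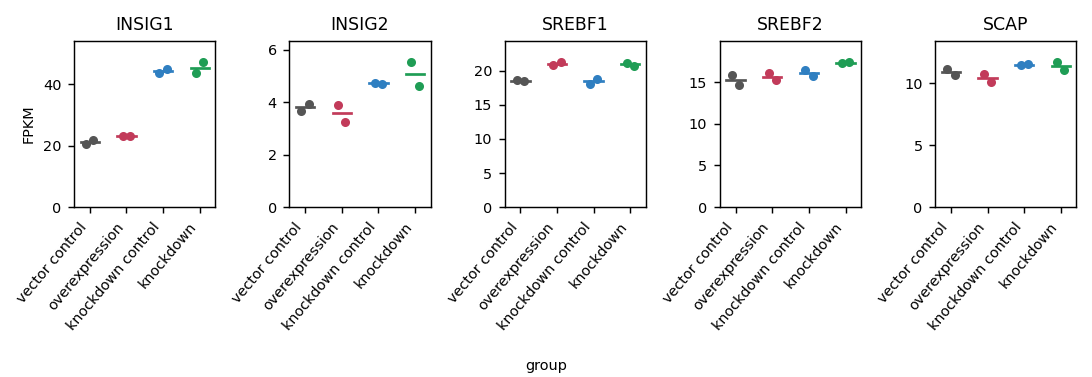
FPKM of the 5 genes of SREBP control in each library (points), with the mean of each group as a line and the axes starting at 0. INSIG1 is about doubled in both groups of the knockdown arm, while SREBF1, SREBF2 and SCAP stay within a narrow range in all 4 groups.

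The promoters of the members were read because the sterol genes moved together and the fatty acid genes did not. RefSeq promoter windows (GRCh38.p14, 250 bases before to 50 after the start) matched 27 of the 31 members by symbol. For some members, MVK among those shown, the window lies inside the gene's interval. Its start is then not the gene's outermost start. Shown are the 250 bases before the start, 5′ to 3′ on the gene's strand, of MVD and MVK, the sterol genes with the highest folds, of INSIG1 and SREBF2, a regulator that rose and a regulator whose difference did not pass, and of SCD and ACACA, fatty acid genes that went in opposite directions. Capitals mark the letters CACNCCAC (the core of a sterol response element), CACGTG (an E-box) and CCAAT (the letters bound by NF-Y), on either strand, so that CCAAT on the other strand reads ATTGG.
MVD (chr16:88663092-88663341, minus strand): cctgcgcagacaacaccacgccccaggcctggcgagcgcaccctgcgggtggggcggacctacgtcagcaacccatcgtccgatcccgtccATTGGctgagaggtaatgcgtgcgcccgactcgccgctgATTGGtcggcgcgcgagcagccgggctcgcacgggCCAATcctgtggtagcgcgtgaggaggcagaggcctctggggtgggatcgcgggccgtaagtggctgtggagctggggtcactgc
MVK (chr12:109573544-109573793, plus strand): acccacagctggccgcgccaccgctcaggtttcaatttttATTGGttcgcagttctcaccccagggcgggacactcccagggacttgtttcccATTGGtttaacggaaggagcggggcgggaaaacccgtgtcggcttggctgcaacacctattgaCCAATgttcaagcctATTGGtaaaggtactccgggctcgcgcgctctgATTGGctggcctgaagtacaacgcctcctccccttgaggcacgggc
INSIG1 (chr7:155297628-155297877, plus strand): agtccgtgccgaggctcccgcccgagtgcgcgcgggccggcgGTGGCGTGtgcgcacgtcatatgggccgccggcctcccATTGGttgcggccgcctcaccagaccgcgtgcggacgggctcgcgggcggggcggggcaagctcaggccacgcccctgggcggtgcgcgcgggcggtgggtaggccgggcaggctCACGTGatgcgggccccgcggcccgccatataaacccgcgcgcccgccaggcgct
SREBF2 (chr22:41832855-41833104, plus strand): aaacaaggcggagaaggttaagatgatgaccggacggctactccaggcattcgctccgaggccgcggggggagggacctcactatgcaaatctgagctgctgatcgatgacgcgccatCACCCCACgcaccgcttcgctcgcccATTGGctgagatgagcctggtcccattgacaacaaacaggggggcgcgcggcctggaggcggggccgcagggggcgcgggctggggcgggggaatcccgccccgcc
SCD (chr10:100346983-100347232, plus strand): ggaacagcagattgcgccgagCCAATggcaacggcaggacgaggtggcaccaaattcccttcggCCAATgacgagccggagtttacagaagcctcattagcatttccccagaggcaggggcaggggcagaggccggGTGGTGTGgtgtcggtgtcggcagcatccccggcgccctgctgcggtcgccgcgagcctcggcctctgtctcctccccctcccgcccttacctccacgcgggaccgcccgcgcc
ACACA (chr17:37406837-37407086, minus strand): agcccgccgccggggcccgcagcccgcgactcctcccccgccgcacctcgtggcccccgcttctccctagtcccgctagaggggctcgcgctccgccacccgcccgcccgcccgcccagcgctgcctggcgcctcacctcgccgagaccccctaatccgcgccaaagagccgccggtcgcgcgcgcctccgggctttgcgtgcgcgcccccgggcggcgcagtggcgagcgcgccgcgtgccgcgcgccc

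In these windows MVD held CCAAT at 3 places and MVK at 5, INSIG1 held all 3 motifs, SREBF2 and SCD held CACNCCAC and CCAAT, and ACACA held none of them. Over the full windows, CCAAT was present in 12 of 15 sterol branch promoters (80%), in 2 of 6 fatty acid promoters (33.3%), in 35.7% of 27305 promoters and in 37% of the 8702 promoters of genes tested. CACNCCAC was present in 4 of 27 members (14.8%), in 5.74% of all promoters and in 5.4% of those of genes tested. In the sterol branch it was in 1 of 15 (6.67%). CACGTG was present in 4 of 27 members (14.8%) and in 2 of 15 of the sterol branch (13.3%), against 7.43% of all promoters and 10.6% of those of genes tested. GGGCGG, the letters bound by SP1, was in 92.6% of the members and in 72.4% of the promoters of genes tested. In the sequences shown, no marked match overlapped another. These are matches of letters, not sites of binding, and a window without a match says only that the letters are not in it.

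The fatty acid genes split. FADS2, the delta-6 desaturase (chromosome 11, 61816203 to 61867354), had 136 and 134 FPKM with the vector, 146 and 146 under overexpression, 208 and 208 in the knockdown control and 246 and 249 under knockdown. Each step of that order is free of overlap, and the knockdown control was 1.54-fold above the vector control (log2 fold change 0.62 ± 0.032, adjusted p = 1.82e-08). FADS1, the delta-5 desaturase, lies next to it on the opposite strand (chromosome 11, 61799627 to 61817003). FADS1 had 119 and 116 FPKM with the vector, 120.2 and 119 under overexpression, 119 and 121 in the knockdown control and 149 and 154 under knockdown. The knockdown libraries lay above all others, the other 6 spanned 116 to 121 FPKM with both vector libraries lowest, and the controls differed by 0.039 on the log2 scale (adjusted p = 0.357), a value below 0 under 3 other scalings. Of FADS2's exonic bases 4.89% lie in exons of FADS1 or FEN1, and 5.57% of those of FADS1 lie in exons of FADS2 or MIR1908. FADS2 has 1 named pseudogene, and so does SCD.

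SCD (chromosome 10, 100347233 to 100364826) had 267 and 259 FPKM with the vector, 279 and 268 under overexpression, 342 and 343 in the knockdown control and 447 and 472 under knockdown. The libraries fell into 3 levels, with the vector and overexpression libraries lowest and knockdown highest, and the knockdown control was 1.30-fold above the vector control (adjusted p = 2.70e-06). The log2 difference of SCD fell from 0.38 to 0.16 with TPM scaling and to 0.067 with quantile normalization, where it did not pass (adjusted p = 0.266). ACACA, the acetyl-CoA carboxylase that commits carbon to fatty acids (chromosome 17, 37084992 to 37406836), had 19.98 and 19.2 FPKM with the vector, 21.8 and 19.8 under overexpression, 14.2 and 14.4 in the knockdown control and 15.2 and 16.0 under knockdown. It went the other way, as all 4 libraries of the knockdown arm lay below the rest, and the knockdown control differed from the vector control by -0.43 ± 0.059 (adjusted p = 4.16e-05). ELOVL6, which lengthens palmitate, also fell in the knockdown control, from 8.93 and 8.47 to 6.38 and 6.38 FPKM (-0.39 ± 0.064, adjusted p = 0.000165). FASN, fatty acid synthase, rose by 0.31 ± 0.054 (adjusted p = 0.000323). ACLY did not pass (0.084 ± 0.044, below 0 under quantile and TPM scaling, adjusted p = 0.105), but passed without vector control replicate 1 (adjusted p = 0.0126).

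Summed over genes, the branches changed their balance between the arms. The 18 sterol genes added up to 500.4 and 495 FPKM with the vector, 517 and 523 under overexpression, 984 and 986 in the knockdown control and 1081 and 1101 under knockdown. The 7 fatty acid genes added up to 834 and 794, 845 and 829, 987 and 985, and 1169 and 1215 FPKM in the same order. As a share of all FPKM in a library, the fatty acid genes made up 0.224% and 0.210% with the vector. In the knockdown control they made up 0.227% and 0.225%. The sterol genes made up 0.135% and 0.131% with the vector and 0.226% and 0.225% in the knockdown control. The fatty acid sum was 1.64 ± 0.044 times the sterol sum in the vector control (SD, n = 2), 1.61 ± 0.033 with overexpression, 1.001 ± 0.0031 in the knockdown control and 1.09 ± 0.016 under knockdown. The ratios of the arms did not overlap. SCD and ACLY make up most of the fatty acid sum, so it says little of the less abundant genes.

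**Figure D3:**
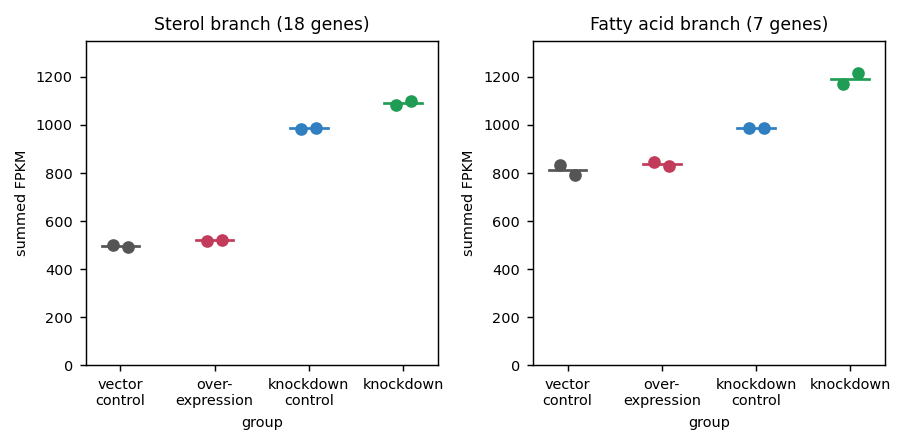
Summed FPKM of the 18 sterol branch genes (left) and of the 7 fatty acid genes (right) in each library (points), with group means as lines and axes from 0. The sterol sum goes from 497 to 985 FPKM between the vector control and the knockdown control, and the fatty acid sum from 814 to 986 FPKM. The FPKM sum of all genes also differs, with 371927 and 378036 in the vector control and 435349 and 437924 in the knockdown control.

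The knockdown libraries were also set against the vector control. That comparison shares the vector libraries with the comparison above, and it does not use the knockdown control libraries, which stood apart in genes listed at 0. The members counted 28 higher and 1 lower, ACACA, where 62.9% of all genes tested passed, 34.1% as higher and 28.8% as lower. ELOVL6 and SCAP did not pass. All 18 sterol genes were higher, with a median of 1.14 on the log2 scale and a range from 0.39 for HMGCS1 to 1.55 for MVD. Under TPM scaling the median was 0.97. INSIG1 was higher by 1.06 ± 0.052, against 0.17 ± 0.058 for SREBF2 and 0.17 ± 0.049 for SREBF1 (adjusted p = 0.0209 and 0.0107). SREBF2 did not pass when vector control replicate 2, knockdown replicate 1 or knockdown replicate 2 was left out (adjusted p between 0.069 and 0.154). ACLY lost its call without vector control replicate 2 (adjusted p = 0.101) or knockdown replicate 2 (adjusted p = 0.0852), INSIG2 without vector control replicate 1 (adjusted p = 0.0531) or knockdown replicate 1 (adjusted p = 0.0949), and SREBF1 without knockdown replicate 1 (adjusted p = 0.0603).

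Other measures moved with these differences between the arms. Across 10632 genes, the log2 difference between the controls had a Spearman rho of -0.51 with transcript length and 0.52 with GC content, a description across genes, which are not independent. For knockdown against the vector control the values were -0.48 and 0.41. The summed level of 6 epithelial markers was 3953 to 3965 FPKM in the knockdown control libraries and 3076 to 3145 in the vector control libraries. The fibroblast list of 4 genes, mostly COL1A1, summed to between 2.67 and 2.70 FPKM there and to between 0.566 and 0.639 with the vector control. The endothelial list of 4 genes went the other way, from between 1.38 and 1.79 FPKM with the vector control to between 0.128 and 0.338 in the knockdown control. The part of these measures in the members' levels was not tested, other than by the length and GC correction below.

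With length and GC trends removed by a smooth fit over all genes, 23 members were higher in the knockdown control than with the vector and 2 were lower. Over all genes, 3336 of 10632 were then called higher and 2948 lower. The sterol branch kept 17 of its 18 calls, with a median of 0.74 in place of 0.996. PMVK, a short transcript of 1280 bases with 59.5% GC, went from 0.57 to 0.054 (adjusted p = 0.431) and lost its call. ELOVL6, with 6454 bases and 41.2% GC, went from -0.39 to -0.0026 (adjusted p = 0.975). ACACA stayed lower with a smaller difference of -0.15 (adjusted p = 0.0209), and SREBF1 was called lower at -0.18 (adjusted p = 0.00652). INSIG2 and STARD4 moved up, to 0.51 and 0.70. For knockdown against the vector control, ACACA lost its call (-0.059, adjusted p = 0.341) and ELOVL6 turned to 0.18 (adjusted p = 0.0310).

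The scaling of the libraries also mattered. Rescaled to TPM, the median of all genes moved to -0.15 between the controls and to -0.12 in knockdown against the vector control, and the share of calls that were higher went from 53.6% to 31.7% and from 54.2% to 31.9%. Under that scaling 2368 of 10648 genes were called higher in the knockdown control. Of the 18 sterol genes 16 were higher, with a median of 0.78, and HMGCS1 and SC5D did not pass. STARD4, INSIG2 and FASN did not pass either, and SREBF1 was called lower at -0.22. ACLY and FADS1 turned to -0.13 and -0.18 and were called lower, and SREBF1 turned to -0.0014 in knockdown against the vector control. With median-of-ratios scaling, where 3439 of 10648 genes were called higher, all 18 sterol genes were. Their median was 0.94, and INSIG2 did not pass. For knockdown against its own control, higher calls made up 50.8% of calls as deposited, 62.1% with median-of-ratios scaling and 66.4% with TPM. Of all 10648 genes, 1204, 1591 and 1745 were called higher, in the same order. Members called higher were 13, 15 and 15.

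**Figure D4:**
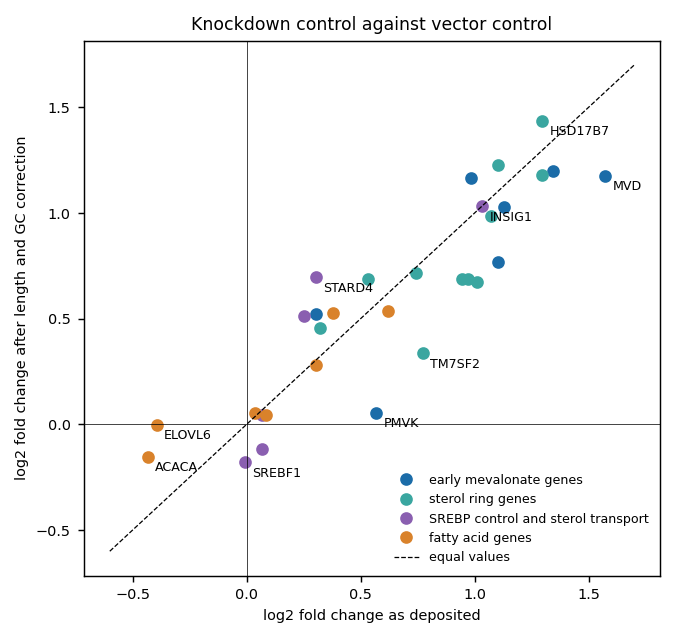
Log2 fold change of each member in the knockdown control against the vector control, as deposited (horizontal) and after the length and GC correction (vertical), coloured by role. Points under the dashed line were lowered by the correction, as PMVK and TM7SF2 were, and points above it were raised, as STARD4 was. MVD, HSD17B7 and INSIG1 stayed above 1. The negative differences of ACACA and ELOVL6 were raised and so became smaller in size, while that of SREBF1 was lowered to -0.18.

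The knockdown of AFAP1-AS1 was then compared with its own control. Of the 31 members, 13 were higher and 0 were lower, where 22.2% of all genes tested passed, 11.3% as higher. The members' median was 0.12 on the log2 scale, against 0.016 for all genes, and the largest difference was 1.34-fold, in SCD. The calls fell on 8 of 18 sterol genes, on 4 of 7 fatty acid genes and on SREBF1. Of the controls of SREBP, INSIG1 (0.029 ± 0.052), INSIG2 (0.083 ± 0.094), SREBF2 (0.10 ± 0.058) and SCAP (-0.011 ± 0.060) did not pass. Across all genes the log2 difference had a Spearman rho of 0.27 with transcript length and -0.45 with GC content. After the length and GC correction 15 members were higher, without IDI1, CYP51A1, SC5D and ELOVL6, which no longer passed, and with LSS, TM7SF2, NSDHL, EBP, DHCR7 and FASN, which then did. Over all genes, 888 of 10632 were higher after the correction and 891 were lower. This comparison and that between the controls share the knockdown control libraries, so their values are given side by side and not correlated.

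The fatty acid desaturases had the smallest p-values among these calls. SCD rose by 0.42 ± 0.037 on the log2 scale (adjusted p = 1.31e-05), FADS1 by 0.33 ± 0.036 (adjusted p = 8.16e-05) and FADS2 by 0.25 ± 0.032 (adjusted p = 0.000273). In each of the 3, both knockdown libraries lay above every other library. ELOVL6 rose by 0.30 ± 0.064 (adjusted p = 0.00655), from 6.38 and 6.38 to 8.27 and 7.89 FPKM, which is close to the 8.93 and 8.47 FPKM of the vector control. ACLY, ACACA and FASN, which make palmitate, did not pass, with 0.069 ± 0.044, 0.12 ± 0.059 and 0.070 ± 0.054.

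Among sterol genes, MSMO1 rose most with knockdown (0.36 ± 0.053, adjusted p = 0.000761), followed by SC5D (0.29 ± 0.080, adjusted p = 0.0228), SQLE (0.22 ± 0.050, adjusted p = 0.00799) and FDFT1 (0.21 ± 0.039, adjusted p = 0.00345). IDI1, CYP51A1, ACAT2 and FDPS rose by between 0.14 and 0.19. MVD, MVK and HSD17B7, which had the highest folds between the controls, had differences of -0.027, 0.033 and -0.014 here and did not pass. The signs of MVD and HSD17B7 are not settled, since MVD turned positive under TPM scaling and the length and GC correction and HSD17B7 under median-of-ratios and TPM scaling. SREBF1 rose by 0.17 ± 0.049 (adjusted p = 0.0256).

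The count of 13 changed with single libraries, as did the count over all genes. It was 8 without knockdown control replicate 1, 6 without knockdown control replicate 2, 8 without knockdown replicate 1 and 7 without knockdown replicate 2. The genes called higher over the whole table went from 1204 to 769, 596, 679 and 493 in the same order. FDFT1, MSMO1, SCD, FADS1 and FADS2 passed in all 22 alternatives that set no minimum fold. IDI1 and SREBF1 lost their calls with each of those 4 libraries left out, CYP51A1 with every library left out except knockdown replicate 1, and ACAT2, FDPS, SC5D, SQLE and ELOVL6 with at least 1.

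**Figure D5:**
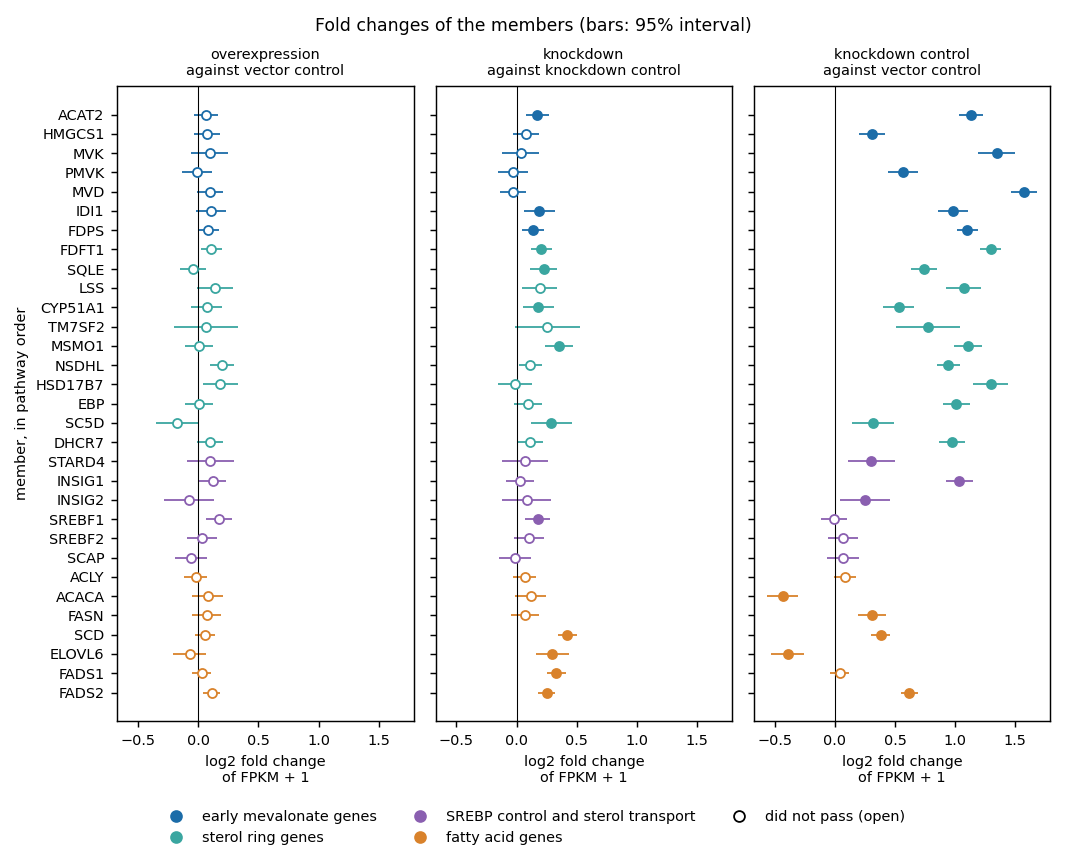
Log2 fold change of FPKM + 1 for each member (rows, in pathway order, coloured by role) in 3 comparisons, with 95% intervals from limma as bars and open circles where the adjusted p did not pass. All overexpression values lie between -0.17 and 0.20, the knockdown values reach 0.42, and the knockdown control lies up to 1.57 above the vector control for sterol genes.

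Overexpression of AFAP1-AS1 gave no called member. Of 31 members, 0 passed in limma, where 0.0657% of all genes tested (7 of 10648) passed. An unadjusted p below 0.05 was found for 7 members and for 738 of the 10648 genes. With voom on recovered reads, 0 of 31 members passed as well. The fold changes were between -0.17 for SC5D and 0.20 for NSDHL, with 24 of 31 above 0 and a median of 0.070, against 0.0024 over all genes. NSDHL went from 26.5 and 27.2 to 30.6 and 31.4 FPKM (0.20 ± 0.044, 95% interval 0.10 to 0.29, adjusted p = 0.198). HSD17B7 went from 6.79 and 6.51 to 8.05 and 7.34 FPKM (adjusted p = 0.589) and SREBF1 from 18.6 and 18.5 to 20.8 and 21.2 FPKM (adjusted p = 0.395). FADS2 had a difference of 0.11 ± 0.032 (adjusted p = 0.425), IDI1 of 0.11 ± 0.057, MVD of 0.10 ± 0.049 and ACACA of 0.078 ± 0.059. The differences of NSDHL, HSD17B7, SREBF1 and FADS2 did not pass the adjustment over all genes, and neither did those of the other members. For INSIG1 the interval was 0.0084 to 0.23 and for SREBF2 -0.095 to 0.16.

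The overexpression effect and the knockdown effect, each against its own control, differed for 6 members, where 10.2% of all genes tested passed, 6.19% as higher and 4.02% as lower. Of the calls over all genes 60.6% were higher, against 48.1% with median-of-ratios scaling and 42.7% with TPM, where 7 members were called, all lower. Calls over all genes were 1087, 1156 and 1294 of 10648 in the same order. All 6 were lower, meaning that the knockdown effect lay above the overexpression effect. They were SCD (-0.37 ± 0.053, adjusted p = 0.00117), FADS1 (-0.30 ± 0.051, adjusted p = 0.00387), MSMO1 (-0.35 ± 0.076, adjusted p = 0.0136), SC5D (-0.46 ± 0.11, adjusted p = 0.0237), ELOVL6 (-0.37 ± 0.090, adjusted p = 0.0240) and SQLE (-0.27 ± 0.071, adjusted p = 0.0328). SC5D, ELOVL6 and SQLE had overexpression values below 0 (-0.17, -0.073 and -0.045), which did not pass. For the other 25 members the difference between the effects did not pass, with intervals as wide as -0.57 to 0.19 for TM7SF2. SREBF1, which had similar values in both arms (0.17 and 0.17), had an interval of -0.15 to 0.15. The count of 6 was 3 without vector control replicate 1, without overexpression replicate 2 or without knockdown control replicate 2, where SC5D, ELOVL6 and SQLE lost their calls. Calls over all genes went from 1087 to 661, 635 and 644 with those libraries left out, of which 659, 473, 465 and 441 were higher.

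Other lipid genes were read from 4 further lists. Of 16 other genes of sterol metabolism and SREBP processing, all tested, 3 were higher and 6 lower in the knockdown control than with the vector, with a median of -0.13. Of all genes tested, 36.8% were higher and 31.8% lower in this comparison, the background for each of the 4 lists. TMEM97, a sterol-regulated membrane protein, had 47.2 and 47.7 FPKM with the vector, 49.7 and 52.9 under overexpression, 60.0 and 60.8 in the knockdown control and 72.0 and 72.7 under knockdown. It was higher in the knockdown control than with the vector (0.34 ± 0.042, adjusted p = 1.87e-05) and higher again with knockdown (0.26 ± 0.042, adjusted p = 0.00146). NPC2, which hands over cholesterol in lysosomes, was 1.995-fold higher in the knockdown control and lower with knockdown than in its control (-0.13 ± 0.038, adjusted p = 0.0324), a difference that did not pass with median-of-ratios (-0.10, adjusted p = 0.0855) or TPM scaling (-0.086, adjusted p = 0.0900). MBTPS2, the site-2 protease that releases SREBP, was lower in the knockdown control (-0.59 ± 0.061, and -0.23 after the length and GC correction). MBTPS1, the site-1 protease, was among the 4 genes of this list called higher with knockdown, and NPC2 was the 1 called lower, where 11.3% and 10.9% of all genes tested were.

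Of 12 genes of sterol efflux, esterification and oxysterols, 8 were tested, and 2 were higher and 2 lower in the knockdown control. ABCA1, the cholesterol exporter, had 5.95 and 5.94 FPKM with the vector, 6.43 and 5.96 under overexpression, 3.84 and 3.75 in the knockdown control and 2.77 and 3.35 under knockdown. The knockdown arm lay below the rest (-0.53 ± 0.083 between the controls, adjusted p = 0.000114), but after the length and GC correction the value was -0.14 and did not pass (adjusted p = 0.119). OSBP, an oxysterol-binding protein, was lower (-0.32 ± 0.062). NR1H3 and NR1H2, which encode the LXR receptors, were higher by 0.49 ± 0.10 and 0.22 ± 0.063, and neither passed after that correction, under which NR1H2 turned to -0.14. With knockdown against its control, 0 of the 8 passed in limma, where 22.2% of all genes tested did. Of the 8, 4 had an unadjusted p below 0.05. Over all genes, 3776 of 10648 had an unadjusted p below 0.05 in this comparison. ABCA1 was -0.24 ± 0.083 there (adjusted p = 0.0541), and was called lower after the length and GC correction (-0.31, adjusted p = 0.0167) and with quantile normalization (adjusted p = 0.0449). SOAT1, an enzyme that esterifies cholesterol, named after its values were seen, was called higher with median-of-ratios (adjusted p = 0.0338) and TPM scaling (adjusted p = 0.0316).

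Of 21 other lipogenic genes, 19 were tested, and 10 were higher and 5 lower in the knockdown control, with a median of 0.21. ACSS2, which makes acetyl-CoA from acetate, had 6.003 and 7.15 FPKM with the vector, 6.99 and 6.99 under overexpression, 13.2 and 13.9 in the knockdown control and 17.4 and 15.7 under knockdown. It was higher in the knockdown control (0.95 ± 0.078) and higher again with knockdown (0.27 ± 0.078, adjusted p = 0.0304). SLC25A1, the mitochondrial citrate exporter, was higher by 0.77 ± 0.051 and AGPAT2, an acyltransferase of phosphatidate synthesis, by 0.79 ± 0.061, and the length and GC correction took these to 0.24 and 0.23. ACSL3, an acyl-CoA synthetase, was lower (-0.39 ± 0.043), a value that turned to 0.024 with the correction. With knockdown against its control, 7 of the 19 were called higher and 0 lower, with a median of 0.13, where 11.3% of all genes tested were higher. After the length and GC correction 5 of these 7 did not pass, namely ELOVL5, ACSL1, ACSL3, ACSL4 and HSD17B12, with adjusted p-values from 0.0522 to 0.590, and ACSL3 went from 0.17 to 0.036. ACSS2 and HACD3 still passed. Genes called higher over the whole table went from 1204 of 10648 to 888 of 10632 with that correction.

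Fatty acid oxidation, the opposite pathway, had 14 of 16 genes tested. In the knockdown control 8 were higher and 1 was lower, with a median of 0.16. With knockdown against its control 0 of 14 passed in limma, where 22.2% of all genes tested did. An unadjusted p below 0.05 was found there for 2 of the 14 and for 3776 of the 10648 genes tested. HADHA, a subunit of the mitochondrial trifunctional protein, named after its values were seen, was 0.11 ± 0.041 there (adjusted p = 0.0886) and passed with median-of-ratios, quantile and TPM scaling and with the length and GC correction (adjusted p from 0.0154 to 0.0420). ECHS1, an enoyl-CoA hydratase, was higher by 0.73 ± 0.046 and CPT2, an inner-membrane carnitine acyltransferase, by 0.66 ± 0.084. SLC25A20, the carnitine carrier, was higher by 0.49 ± 0.081. CPT1A, the outer-membrane acyltransferase that admits fatty acids to mitochondria, was lower (-0.38 ± 0.067, adjusted p = 0.000306), from 16.7 and 15.6 to 12.6 and 11.7 FPKM. In overexpression against the vector control, 0 of the 57 genes tested in the 4 lists passed in limma, where 0.0657% of all genes did. An unadjusted p below 0.05 was found for 4 of the 57 and for 738 of the 10648 genes tested.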

How the data were processed

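For 8 libraries of total RNA, the authors deposited FPKM values of 17056 gene symbols, per the labels and the file header. HISAT2, featureCounts, HTSeq, R 3.2.0 and hg38 appear in the submitters' processing notes with no role given. Annotation, filters and strand use were not given in the sources used here. Reads per gene were recovered from the FPKM steps, and 100% of the genes came out whole within 0.02 reads. Depth was 33662221 to 37508996 reads.

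The 10648 genes whose mean reached 1 FPKM were tested with limma 3.58.1 under R 4.3.3 (two-sided, lmFit, contrasts.fit, eBayes with trend) on log2(FPKM + 1), all 4 groups in a single fit with 4 residual degrees of freedom, and Benjamini-Hochberg adjustment over all of them. Fold changes on this scale understate those of low genes. Tables were made with Python 3.11.15. The fit and the read recovery were tested on simulated data.

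The members, lists and tests were chosen with earlier results of these data known. Values in every library are given for the 5 SREBP control genes and, in each other role group, the 2 members with the largest absolute fold change in each of 3 comparisons, and up to 4 genes with the smallest p are named from each further list. A gene that this rule also names is not reported here. Replicates differed beyond sampling noise, with chi-square values of 5.05 to 5.78 per degree of freedom. GENCODE release 29 gave lengths and GC content, and gene positions came from RefSeq on GRCh38.p14. Alternatives were other pseudocounts, filters, scalings, voom on recovered reads, eBayes settings, a length and GC correction, a replicate block and leaving out each library.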

Additional observations from a re-analysis of the deposited data

Results flagged for a closer look

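A difference between the effects of the overexpression and the knockdown arm was found by limma's test of that difference for 6 members. SCD had a log2 fold change of 0.055 ± 0.037 (SE) with overexpression and 0.42 ± 0.037 with knockdown, each against its own control, and FADS1 had 0.030 ± 0.036 and 0.33 ± 0.036. MSMO1 had 0.0069 ± 0.053 and 0.36 ± 0.053. SC5D had -0.17 ± 0.080 and 0.29 ± 0.080, ELOVL6 -0.073 ± 0.064 and 0.30 ± 0.064, and SQLE -0.045 ± 0.050 and 0.22 ± 0.050. None of the overexpression values passed, and all 6 knockdown values did. Of the 6, SCD and FADS1 passed in all 21 alternatives that set no minimum fold.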

How the results depend on the processing

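Members called higher in knockdown against its control ranged from 6 to 13 with a library left out and were 9 to 15 under 14 other settings. A minimum absolute log2 fold change of 1 left 0 of those 13, 10 higher and 0 lower in the knockdown control against the vector control, 14 higher and 0 lower in knockdown against the vector control, and 0 of the 6 differences between effects. The share of all genes that kept a call at that fold was not counted. Members lower in the knockdown control than with the vector were 2, but 4 with quantile normalization, where ACLY was -0.20 and FADS1 -0.18, and 5 with TPM scaling, where they were -0.13 and -0.18. Members lower in knockdown than in the vector control were 1, but 2 with TPM scaling and 0 with the length and GC correction, with or without the replicate block. In that comparison ACLY turned to -0.096 with quantile normalization and -0.023 with TPM scaling, SREBF1 to -0.0014 with TPM scaling, and ELOVL6 to 0.18 with the length and GC correction, with or without the block. Members whose effects differed were 3 with no filter, 3 with the block and the length and GC correction together, and 3 to 6 with a library left out. Over all genes, 795 of 17056 differed with no filter and 676 of 10632 with the block and correction together. The cause was not tested. The fit restricted to the libraries compared could not be run for the difference between effects, which uses all 8.

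Same-numbered libraries did not deviate together (correlations between -0.061 and 0.062), and the labels do not say whether a number marks a shared culture. With the replicate block the counts were 0 with overexpression, 13 with knockdown, 24 and 2 between the controls, 28 and 1 for knockdown against the vector control, and 6 differences between effects, as without it. Without a minimum fold, 18 of 26 calls between the controls and 24 of 29 for knockdown against the vector control held in all 22 alternatives, and 0 of 31 members passed with overexpression in any of them. Depth limits TM7SF2 most, with 183 reads in its lowest library.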
